A study of Mus musculus with 24 samples.

Results

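Metallothioneins are small cysteine-rich proteins that bind zinc, copper and cadmium, and their genes are the best known targets of the metal-responsive transcription factor MTF1. The 5 genes around this response described here are *Mt1* and *Mt2*, which encode the metallothioneins found in most tissues, *Mtf1*, which encodes the factor itself, *Slc30a1*, which encodes the zinc exporter ZnT1, and *Hmox1*, which encodes heme oxygenase 1, an enzyme that breaks down heme and is induced by oxidative and heavy metal stress. Free zinc binds the zinc fingers of MTF1, which then enters the nucleus and binds short metal response elements (MREs) in the promoters of *Mt1*, *Mt2* and *Slc30a1*. In cells, metallothioneins hold zinc in a form that can be released, and they also scavenge reactive oxygen. The 5 genes were chosen by their symbols and with attention to the sgCTCF libraries, in which the metallothionein values were already known to be low, out of 55487 genes in each of the 2 deposited tables. All 5 were found in both tables, and all 5 passed the filter on low values in both experiments.

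The 24 libraries come from Cas9-LPs, *Ebf1*-deficient lymphoid progenitor (LP) lines derived from fetal liver of Rosa26-Cas9 knock-in mice, so the control cells also lack *Ebf1* and carry Cas9. The cells grew with SCF, Flt3L and IL-7 on OP9 stroma, and the culture methods list no added metal. They received retroviral sgRNAs marked by hNGFR and were sorted as hNGFR+CD45+ cells 5 days later. In the first experiment (Exp1), LPs and Phase1 cells, the latter after Notch stimulation on OP9-DLL4 stroma, carried sgControl or sgCbfb. In the second (Exp2), LPs carried sgControl, sgCbfb, sgCTCF or sgMed12. Each of the 8 groups has 3 libraries. *Cbfb* encodes the partner subunit of RUNX factors, *Ctcf* encodes a factor that organizes chromatin loops and insulates promoters, and *Med12* encodes a subunit of the Mediator kinase module. Pooled sgRNAs against a gene leave a mixture of alleles in the sorted cells, and the lines stand for progenitors held before the B cell stage rather than for normal tissue.

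QuantSeq yields 1 tag from the 3′ end of each polyadenylated mRNA, and levels are given in CPM, the read count of a gene at a common library total. The libraries held 1363263 to 1743319 reads on genes in Exp1 and 3354483 to 4326782 in Exp2. A gene with no read could still be present at up to 1.72 to 2.20 CPM in Exp1 and 0.693 to 0.894 CPM in Exp2 (3 reads, counting error only). *Cbfb* was 2.36-fold lower in Exp2 sgCbfb than in sgControl LPs and 2.15-fold lower in the LPs of Exp1. In Phase1 it was 53.9 ± 9.7 CPM in sgCbfb and 66.5 ± 19.2 CPM in sgControl, groups that overlapped (limma adjusted p = 0.59). Single Phase1 values were 44.1, 63.5 and 54.2 CPM in sgCbfb and 73.4, 81.3 and 44.7 CPM in sgControl. The overlap thus came from sgControl replicate 3, the library with the fewest reads on genes (1363263). With it included, *Cbfb* tags did not separate the Phase1 libraries labelled sgCbfb from sgControl. *Ctcf* was 1.28-fold lower in sgCTCF (330.3, 272.3 and 314.3 CPM against 403.8, 355.9 and 413.2 CPM in sgControl, limma adjusted p = 0.021). *Med12* was 7.01 ± 3.38 CPM in sgMed12 and 5.14 ± 1.26 CPM in sgControl, and a tag at the 3′ end does not show whether the coding sequence was edited. The study reports loss of the CBFβ protein by immunoblot after sgRNA delivery to Cas9-LPs, and it shows blots for CTCF and Med12 as well. Those blots measure protein, at an earlier day than the mRNA tags given here. Markers of an LP list were read in every group, with a summed level of 793 to 1907 CPM over the libraries. The list holds 7 genes and is led by *Ptprc*, which encodes CD45, on which the cells were sorted. Its sum does not set LPs apart, at 1218 to 1486 CPM in LP sgControl and 1053 to 1238 CPM in Phase1 sgControl cells of Exp1. The 7 Notch-stimulated markers had a summed level of 1346 to 1504 CPM in Phase1 sgControl cells and 259 to 382 CPM in LP sgControl cells of Exp1.

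*Mt1* and *Mt2* lie side by side on mouse chromosome 8. In GRCm38, *Mt2* (ENSMUSG00000031762) spans chr8:94172664-94173568 and *Mt1* (ENSMUSG00000031765) spans chr8:94179082-94180327, both on the plus strand and 5513 bases apart. *Hmox1* (ENSMUSG00000005413) is on the same chromosome at chr8:75093621-75100589. *Slc30a1* (ENSMUSG00000037434) is at chr1:191906767-191913247 and *Mtf1* (ENSMUSG00000028890) at chr4:124802104-124849800. The targeted genes *Cbfb* and *Ctcf* are on chromosome 8 as well, 10990346 and 11456240 bases beyond *Mt1*. The exons of *Mt2* overlap the antisense gene *Gm45774* by 432 bases and those of *Slc30a1* overlap antisense *1700034H15Rik* by 468 bases. *Gm45774* had no read in any library and *1700034H15Rik* at most 2 reads in a library, whereas *1110065P20Rik*, antisense to 721 exonic bases of *Mtf1*, had 20 to 103 reads, so reads of *Mtf1* and this gene cannot be told apart if strand was not used in counting.

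The upstream sequences of the MTF1 target genes are shown because the MRE is the element that ties these genes together. RefSeq promoters of GRCm38.p6 were searched from 250 bases before to 50 after the annotated start, on both strands, for the MRE core TGCACNC or TGCGCNC, and matches are in capitals below. Only bases before the start in both RefSeq and GENCODE are printed, on the plus strand, for *Mt1* chr8:94178839-94179081, for *Mt2* chr8:94172368-94172617 and for *Slc30a1* chr1:191906531-191906766.
Mt1: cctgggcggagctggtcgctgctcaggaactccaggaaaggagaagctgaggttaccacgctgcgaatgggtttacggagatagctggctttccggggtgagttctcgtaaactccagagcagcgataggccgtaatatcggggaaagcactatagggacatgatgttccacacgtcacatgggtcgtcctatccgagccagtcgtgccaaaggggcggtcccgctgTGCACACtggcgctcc
Mt2: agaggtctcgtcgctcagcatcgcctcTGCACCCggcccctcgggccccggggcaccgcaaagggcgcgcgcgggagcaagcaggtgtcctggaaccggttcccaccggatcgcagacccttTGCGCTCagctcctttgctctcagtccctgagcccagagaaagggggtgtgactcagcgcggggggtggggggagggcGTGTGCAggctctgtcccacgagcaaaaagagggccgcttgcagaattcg
Slc30a1: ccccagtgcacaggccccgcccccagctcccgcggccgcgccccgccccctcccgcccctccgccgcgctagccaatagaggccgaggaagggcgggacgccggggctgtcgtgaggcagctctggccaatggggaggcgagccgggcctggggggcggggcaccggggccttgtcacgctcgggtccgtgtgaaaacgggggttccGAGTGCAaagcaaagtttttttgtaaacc
In these windows *Mt2* held 4 matches, 3 of them before the start, *Mt1* held 3 with 1 before the start, *Slc30a1* held 2 with 1 before the start, and *Mtf1* held 0. The windows end at 94179138 for *Mt1*, 94172667 for *Mt2* and 191906830 for *Slc30a1*, and bases beyond were not searched. Of 32851 promoters, 25.7% held at least 1 match, 7.11% at least 2, 1.97% at least 3 and 0.517% at least 4. The other 2 matches of *Mt1* sit at positions 3 to 27 counted from 1 at the RefSeq start, at chr8:94179091-94179115, shown here because GENCODE also lists *Mt1* transcripts that start after them, at 94179211 and 94179241. *Mt2* and *Slc30a1* also have a later GENCODE start, at 94172860 and 191907256.
Mt1, after the RefSeq start: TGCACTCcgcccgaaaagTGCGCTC
The antioxidant response element core TGACNNNGC, bound by NRF2, matched once in *Mt2* and once in *Slc30a1*, and in 12.4% of promoters. A core stretch of the CTCF motif, AGGGGGC, matched once each in *Mtf1* and *Slc30a1* and in 10.6% of promoters, with 0 matches in the *Mt1* and *Mt2* windows. These are matches of letters and not measured binding.

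In LPs of Exp2, *Mt1* and *Mt2* were lower in sgCTCF than in sgControl. The level of *Mt1* was 120.8, 119.3 and 91.3 CPM in the 3 sgControl libraries and 34.3, 29.2 and 32.6 CPM in the 3 sgCTCF libraries. Every sgCTCF library was below every sgControl library, and the sgCTCF libraries were close together. The mean level of *Mt1* was 3.45-fold lower, at 32.1 ± 2.6 against 110.5 ± 16.6 CPM (SD, n = 3), a log2 ratio of −1.79. The level of *Mt2* was 25.1, 25.1 and 13.6 CPM in sgControl and 5.90, 5.85 and 1.85 CPM in sgCTCF. Again the groups did not overlap, and the lowest sgControl library and the lowest sgCTCF library of *Mt2* were both replicate 3. Its mean level was 4.69-fold lower, at 4.53 ± 2.33 against 21.3 ± 6.6 CPM, a log2 ratio of −2.23. The lowest *Mt2* value rests on 8 reads, and all 3 sgCTCF libraries together on 51 reads against 236 in sgControl. Since the genes were selected on this comparison, it is described here with no test.

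**Figure D1:**
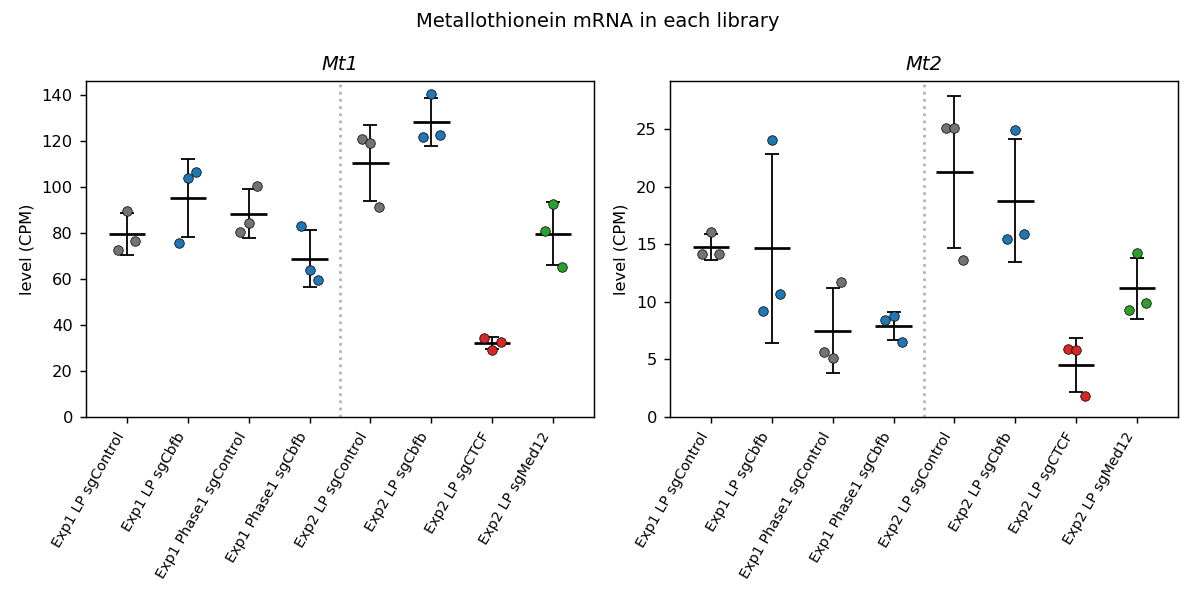
Level of *Mt1* (left) and *Mt2* (right) in CPM in the 24 libraries of the 8 groups. Points are libraries, horizontal bars means and error bars SD (n = 3), and the dotted line parts the 2 experiments. The 3 sgCTCF libraries of *Mt1* lie between 29.2 and 34.3 CPM, below all 21 others.

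The other 3 genes overlapped sgControl. *Mtf1* was 14.5, 18.3 and 23.4 CPM in sgControl and 16.9, 17.0 and 14.8 CPM in sgCTCF, with a log2 ratio of −0.21. *Slc30a1* was 5.01, 5.32 and 8.28 CPM in sgControl and 7.78, 11.1 and 6.93 CPM in sgCTCF, with a log2 ratio of 0.47. *Hmox1* was 3.69, 5.02 and 4.87 CPM in sgControl and 6.17, 4.46 and 2.31 CPM in sgCTCF, with a log2 ratio of −0.07. Thus 2 of 5 genes were lower in every sgCTCF library than in any sgControl library, where 15.1% of all 13177 tested genes were, and since the genes were chosen on this comparison nothing is read from that count. A gene counted as called when the limma adjusted p was below 0.05, the group means differed more than 2-fold and one of them exceeded 10 CPM, and 2.43% of all tested genes were called in either direction here.

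The balance between the 2 metallothionein mRNAs varied between libraries. The ratio of *Mt1* to *Mt2* reads within a library, used here only to compare libraries, was 4.75 to 6.70 in sgControl, 5.63 to 7.85 in sgCbfb, 6.51 to 8.70 in sgMed12 and 5.00 to 17.6 in sgCTCF. The highest ratio belongs to sgCTCF replicate 3, in which *Mt2* had 8 reads. Leaving out any 1 of the 6 libraries gave log2 ratios of −1.91 to −1.72 for *Mt1* and −2.47 to −1.86 for *Mt2*, whose sign could not change since the groups do not overlap. In bulk RNA a lower level can mean fewer cells that express a gene or less mRNA per cell, and the 2 cannot be told apart.

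**Figure D2:**
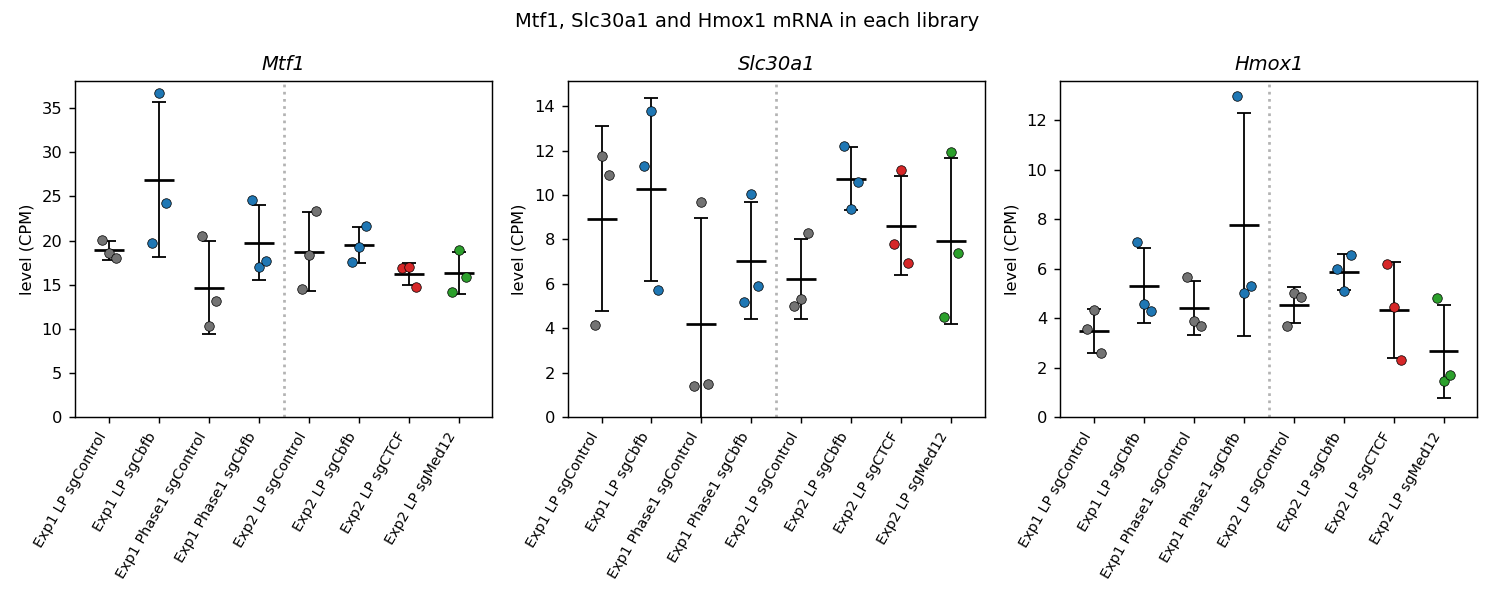
Level of *Mtf1*, *Slc30a1* and *Hmox1* in CPM in the 24 libraries, drawn as for the metallothioneins, each axis starting at 0 (the SD bar of *Slc30a1* in Phase1 sgControl is cut there). *Mtf1* lies between 10.3 and 36.7 CPM, and the sgCTCF libraries overlap the sgControl libraries for all 3 genes.

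The other perturbations of Exp2 set the order of the levels. Mean *Mt1* was 128.3 ± 10.6 CPM in sgCbfb, 110.5 ± 16.6 in sgControl, 79.7 ± 13.8 in sgMed12 and 32.1 ± 2.6 in sgCTCF. Single *Mt1* values were 121.6, 140.5 and 122.7 CPM in sgCbfb and 81.1, 92.7 and 65.3 CPM in sgMed12. The ranges of sgControl and sgMed12 touched, since the lowest sgControl library (91.3) was below the highest sgMed12 library (92.7), whereas sgCTCF overlapped no other group. *Mt2* was 15.5, 24.9 and 15.9 CPM in sgCbfb and 9.32, 14.2 and 9.93 CPM in sgMed12, and sgControl overlapped both. All *Mt2* values of sgCTCF were again below those of the other 3 groups. The 3 comparisons with sgControl share the sgControl libraries, so they are given side by side and are not independent.

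In sgMed12 against sgControl, no gene of the 5 was called, where 1.03% of 13177 tested genes were. *Mt1* was 1.39-fold lower (limma log2 fold change −0.47, SE 0.14, 95% interval −0.76 to −0.18, adjusted p = 0.042), which passed the p threshold and not the fold threshold. This p did not hold under all alternatives. It ranged from 0.0023 to 0.23 over 19 of them and was below 0.05 in 5, and it was 0.059 with edgeR on the recovered reads and 0.12 with only the 2 groups in the fit. *Mt2* was 1.90-fold lower (−0.84, SE 0.32, interval −1.50 to −0.19, adjusted p = 0.10), and it was called when sgMed12 replicate 2 was left out (−1.02, adjusted p = 0.027). *Hmox1* was 4.80, 1.45 and 1.70 CPM in sgMed12, with a log2 fold change of −0.70 (SE 0.36, adjusted p = 0.24). *Mtf1* (−0.17) and *Slc30a1* (0.25) had adjusted p of 0.66 and 0.67. Over the 7 comparisons tested, limma and edgeR each called 0 of the 5 genes in every one, and an unadjusted p under 0.05 was reached by 2 genes in sgMed12, by 0 in each sgCbfb comparison of Exp1 and by 1 in each of the other 4. The share of all tested genes at that unadjusted cut was not taken, so nothing is read from these counts.

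Exp2 sgCbfb against sgControl also gave no call among the 5 genes, against 4.33% of all tested genes, although 3 of them were above every sgControl library, as were 15.5% of all tested genes. *Slc30a1* was 12.2, 9.39 and 10.6 CPM in sgCbfb, so the zinc exporter was 1.73-fold higher by means (log2 fold change 0.72, SE 0.31, interval 0.09 to 1.36, adjusted p = 0.14). *Mt1* had a log2 fold change of 0.22 (SE 0.14, interval −0.07 to 0.51, adjusted p = 0.36). *Hmox1* was 5.96, 5.09 and 6.55 CPM in sgCbfb, and its log2 fold change was 0.32 (adjusted p = 0.67). *Mt2* and *Mtf1* overlapped sgControl, with log2 fold changes of −0.15 and 0.08. The targeted gene *Cbfb* itself had a log2 fold change of −1.23 in the same fit.

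**Figure D3:**
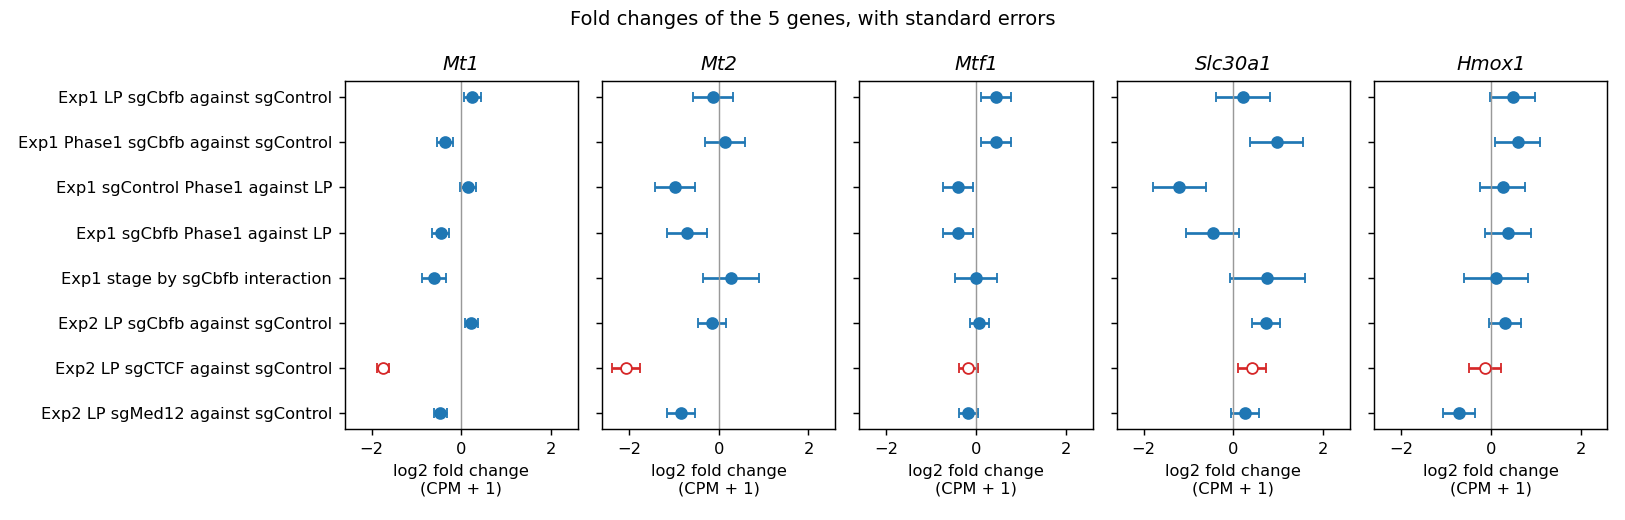
Limma log2 fold change on the log2(CPM + 1) scale for each gene in the 8 comparisons, with its standard error. Filled points were tested and none was called, and open points mark sgCTCF, shown with no test. The 2 points farthest below 0 are the open ones of *Mt1* (−1.75) and *Mt2* (−2.07).

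In Exp1, the same sgCbfb comparison in LPs gave 0 calls among the 5 genes at a background of 1.69%, and the lowest adjusted p of the 5 was 0.71. *Mt1* was 72.6, 89.8 and 76.4 CPM in sgControl LPs and 75.5, 103.8 and 106.3 CPM in sgCbfb LPs. These ranges overlapped, and the log2 fold change of 0.25 had an interval of −0.14 to 0.63. *Mt2* was 14.2, 16.1 and 14.1 CPM in sgControl LPs and 9.17, 24.1 and 10.7 CPM in sgCbfb LPs, so a single library (replicate 2) was high and the 2 means, 14.8 ± 1.1 and 14.7 ± 8.2, differed by less than their spread. *Mtf1* was 20.1, 18.6 and 18.0 CPM in sgControl and 19.7, 36.7 and 24.3 CPM in sgCbfb LPs (log2 fold change 0.45, adjusted p = 0.71).

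In Phase1 cells, sgCbfb against sgControl gave 0 calls among the 5 genes, against 3.52% of 13239 tested genes. *Mt1* was 80.5, 84.5 and 100.5 CPM in sgControl and 83.0, 64.1 and 59.5 CPM in sgCbfb, which overlapped in 1 library. Its log2 fold change was −0.36 (SE 0.18, interval −0.75 to 0.02, adjusted p = 0.31). *Hmox1* had its highest value of all libraries, 12.97 CPM (20 reads), in replicate 1 of Phase1 sgCbfb, while the other 2 libraries of that group had 5.03 and 5.30 CPM. The difference between the sgCbfb effects of the 2 stages was tested as an interaction, which called 0 of the 5 genes and 1.19% of all tested genes. For *Mt1* the interaction was −0.61 (SE 0.26, interval −1.15 to −0.07, unadjusted p = 0.03, limma adjusted p = 0.39).

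Notch stimulation was compared within each sgRNA. In sgControl cells, Phase1 against LP gave 0 calls among the 5 genes and 3.39% over all tested genes. *Mt2* was 5.65, 5.16 and 11.7 CPM in Phase1, below all 3 LP libraries, with means of 7.51 ± 3.66 against 14.8 ± 1.1 CPM. Its log2 fold change of −0.97 (SE 0.44, interval −1.89 to −0.06) had an adjusted p of 0.22. *Slc30a1* was 4.13, 11.8 and 10.9 CPM in LPs and 1.41, 9.68 and 1.47 CPM in Phase1, so 2 Phase1 libraries had 2 reads each. The log2 fold change of *Slc30a1* was −1.21 (SE 0.59, adjusted p = 0.26), and −1.92 (adjusted p = 0.049) without Phase1 sgControl replicate 2. *Mt1* did not follow *Mt2* here, with 88.5 ± 10.6 CPM in Phase1 and 79.6 ± 9.0 CPM in LPs (log2 fold change 0.15, interval −0.23 to 0.54).

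In sgCbfb cells, Phase1 against LP likewise gave 0 calls among the 5 genes (1.19% of all tested genes). *Mt2* was 8.43, 8.80 and 6.48 CPM in Phase1, again below each LP library of the same sgRNA, with a log2 fold change of −0.70 (SE 0.44, adjusted p = 0.58). *Mt1* had a log2 fold change of −0.46 (SE 0.18, interval −0.84 to −0.07, adjusted p = 0.29), and *Mtf1* one of −0.40 (adjusted p = 0.72). *Mt2* was thus below every LP library in all 6 Phase1 libraries within its sgRNA, without passing the test in either comparison. The share of all tested genes that did not overlap between the stages was not taken, so nothing is read from the lack of overlap.

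The brain and epithelial metallothionein genes of the same cluster were close to or at 0. *Mt3* had at most 2 reads in a library and *Mt4* had 0 reads in all 24 libraries, so neither was tested. The *Mt3* reads were 1 in a library of Exp1 LP sgCbfb, 1 in a library of Phase1 sgCbfb and 2 in a library of Exp2 sgCbfb.

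Other genes of metal and stress handling were read from lists of 104 genes, of which 87 were tested in each experiment. The lists were chosen with earlier results of these data known, so the p-values of their genes are given as descriptions. In sgCTCF against sgControl, 2 of the 87 were called higher and 1 lower, where 2.43% of all 13177 tested genes were called. This count is near that share. Their median log2 fold change was −0.03, beside −0.02 over all tested genes. An unadjusted p under 0.05 was reached by 17 of them, and since the share of all tested genes at that cut was not taken, nothing is read from this count. *Slc39a8*, which encodes the zinc and manganese importer ZIP8, was 4.22, 4.43 and 3.90 CPM in sgControl and 22.0, 14.5 and 9.48 CPM in sgCTCF, 3.66-fold higher by means (log2 fold change 1.58, SE 0.32, adjusted p = 0.0018). *Blvrb*, a biliverdin reductase that acts after heme oxygenase, was 2.07-fold higher (18.5 ± 7.3 against 8.93 ± 2.71 CPM, adjusted p = 0.033). *Klf9*, a transcription factor gene induced by glucocorticoids, was 2.24-fold lower, with 33.3, 34.5 and 40.4 CPM in sgCTCF against 73.3, 88.3 and 80.8 CPM in sgControl (log2 fold change −1.14, SE 0.13, adjusted p = 1.4e-06). Of the 9 genes of the glucocorticoid list *Klf9* was the one called, while *Fkbp5* (160.2 ± 6.3 against 173.5 ± 9.0 CPM, adjusted p = 0.61) and *Tsc22d3* (28.3 against 27.3 CPM) were not, and a part of glucocorticoids in the *Mt1* and *Mt2* levels was not tested.

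By role, no gene was called in sgCTCF among 5 tested zinc exporters of the Slc30a family and 10 copper genes. None was called among 19 genes of the NRF2 antioxidant response, 10 heat shock genes and 3 genes of metal-responsive transcription. Of all tested genes 2.43% were called, so lists this short could well hold no call and nothing is read from these zeros. *Slc30a9* (65.8 against 63.0 CPM) and *Slc30a5* (24.6 against 29.9 CPM) had the highest levels of the exporters, with adjusted p of 0.87 and 0.44. For the NRF2 list, *Sod1*, the copper and zinc superoxide dismutase gene, was 635 CPM in sgCTCF and 694 CPM in sgControl (adjusted p = 0.54), and *Prdx1*, a peroxiredoxin gene, was 508 against 489 CPM (adjusted p = 0.91). Among heat shock genes, *Hsp90aa1* was 789 against 965 CPM (log2 fold change −0.28, adjusted p = 0.11) and *Hspa8* 472 against 482 CPM. *Atox1*, the copper chaperone gene, was 89.4 against 89.7 CPM. *Sp1*, whose protein binds GC boxes of metallothionein promoters, was 190 against 206 CPM (adjusted p = 0.55).

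**Figure D4:**
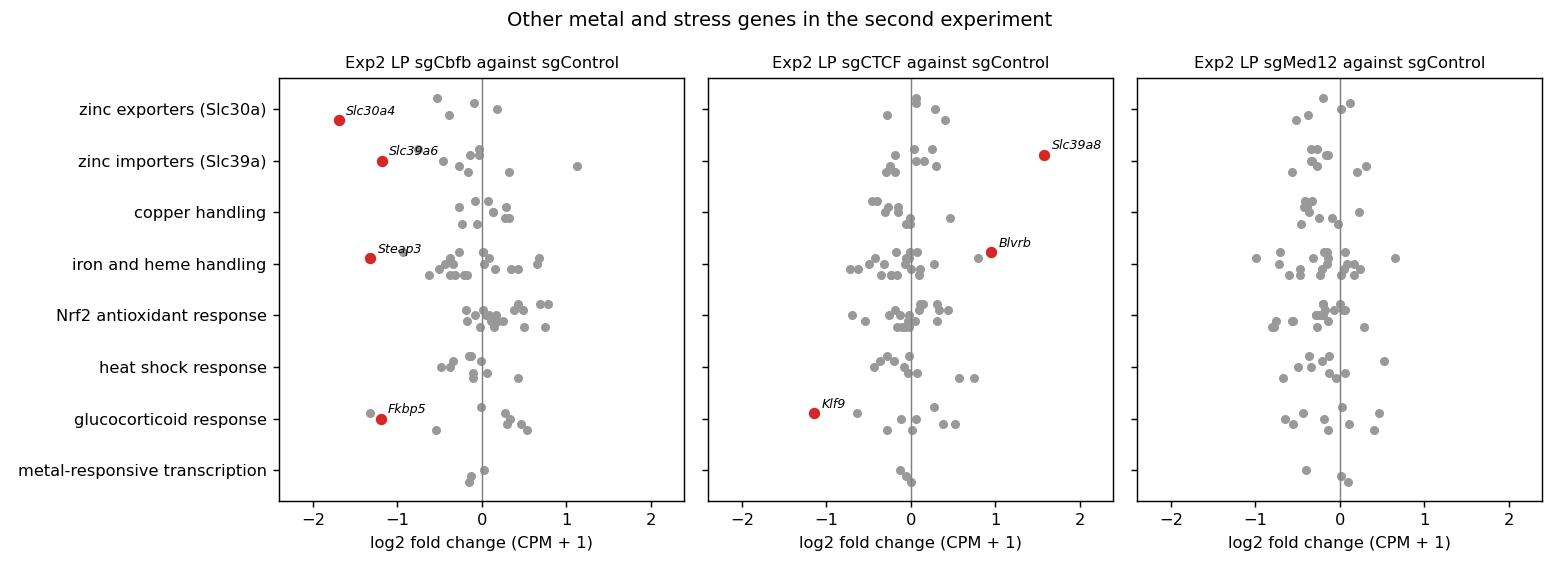
Limma log2 fold change (log2(CPM + 1) scale) of the tested genes of 8 metal and stress lists in sgCbfb, sgCTCF and sgMed12 against sgControl LPs of Exp2. Each point is a gene, placed by its list, and red points with names were called. No point of sgMed12 is red.

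In sgMed12, 0 of the 87 genes were called by limma or edgeR, where limma called 1.03% of all tested genes. An unadjusted p under 0.05 was reached by 28 of the 87, and 11 were called without the fold threshold. The share of all tested genes at these looser cuts was not taken, so nothing is read from these counts. The median log2 fold change of the 87 was −0.20 beside −0.02 over all tested genes. The lists with the lowest medians were copper handling (−0.35) and the zinc importers (−0.28). In Exp2 sgCbfb, 4 of the 87 were called, all lower, a count near the 4.33% of all tested genes called there. *Slc30a4*, a zinc exporter gene, was 18.9 ± 4.7 CPM in sgControl and 5.13 ± 1.26 CPM in sgCbfb (log2 fold change −1.69, adjusted p = 6.5e-06). *Slc39a6*, a zinc importer gene, was 2.29-fold lower, and *Steap3*, a ferrireductase gene, 2.56-fold lower. *Fkbp5*, an immunophilin gene of the glucocorticoid list, was 2.31-fold lower in Exp2 sgCbfb and was called lower in sgCbfb of both stages of Exp1 as well, at 2.39-fold in LPs and 2.36-fold in Phase1, where the lowest sgControl library (132.0 CPM) overlapped sgCbfb. Without LP sgCbfb replicate 3, no gene of the lists was called in Exp1 LPs.

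In Exp1, 3 of the 87 genes were called for sgCbfb in Phase1 and 4 for Phase1 against LP with sgControl, where 3.52% and 3.39% of all tested genes were. *Slc39a1*, which encodes the plasma membrane zinc importer ZIP1, was 56.1, 45.8 and 53.3 CPM in sgControl LPs and 19.1, 32.3 and 8.07 CPM in sgControl Phase1 cells (log2 fold change −1.53, SE 0.33, adjusted p = 0.0052). With sgCbfb it was 44.7, 49.6 and 50.7 CPM in Phase1, all above sgControl Phase1 (log2 fold change 1.44, adjusted p = 0.0088). *Zbtb16*, the gene of the transcription factor PLZF, was called higher in sgControl Phase1 (24.7, 27.7 and 32.3 CPM against 4.72, 5.57 and 7.71 CPM in LPs, adjusted p = 0.018) and lower in Phase1 with sgCbfb (1.26 ± 1.30 CPM, adjusted p = 4.8e-05). *Nqo1*, an NRF2 target encoding a quinone reductase, was 14.8, 9.03 and 8.07 CPM in sgControl Phase1 cells, while the 3 LP libraries had 0.59, 0 and 0 CPM (adjusted p = 6e-04). *Klf9* was 2.05-fold lower in Phase1 than in LPs with sgControl (adjusted p = 0.0056), and *Dusp1*, an early response phosphatase gene, was 3.23-fold higher in Phase1 than in LPs with sgCbfb (adjusted p = 0.041), a call lost when any sgCbfb LP library, LP sgControl replicate 2 or Phase1 sgCbfb replicate 1 or 2 was left out.

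Among tested genes around the *Mt* pair, none had as low a log2 fold change in sgCTCF. The pair was selected for its low level in this comparison, so nothing is read from that order. Of 35 other annotated genes that start within 500 kb of the *Mt1* start, *Mt2* was one and 17 more were tested. Of the 17, 0 were called by limma or edgeR, where limma called 2.43% of all tested genes. At that share 17 genes could well hold no call, so nothing is read from this count. An unadjusted p under 0.05 was reached by 4, a cut at which the share of all tested genes was not taken. *Nup93*, a nuclear pore gene 35.5 kb beyond *Mt1*, was 183.5 CPM in sgCTCF and 177.5 CPM in sgControl (log2 fold change 0.04, SE 0.17). *Bbs2*, a ciliary gene on the other side at −80.2 kb, was 3.57 against 3.66 CPM. *Herpud1*, an endoplasmic reticulum stress gene 207.4 kb beyond, was 115.7 against 137.9 CPM (−0.25, adjusted p = 0.18). *Arl2bp*, 487.5 kb beyond, was higher, at 90.1 against 63.9 CPM (0.49, adjusted p = 0.01), below the fold threshold. The highest log2 fold change of the 17 was that of *9330175E14Rik*, 256.0 kb beyond (1.17, limma adjusted p = 0.049). Its level was 3.18 against 0.957 CPM, below the threshold on the mean. Some neighbours, such as *Gm45873* with 0.602 CPM in sgControl, were too low to show a fall like that of the pair. Over the 687 tested genes of chromosome 8 outside the 5 the median log2 fold change in sgCTCF was −0.02, and over the 70 that start between *Mt1* and *Ctcf* it was 0.002.

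**Figure D5:**
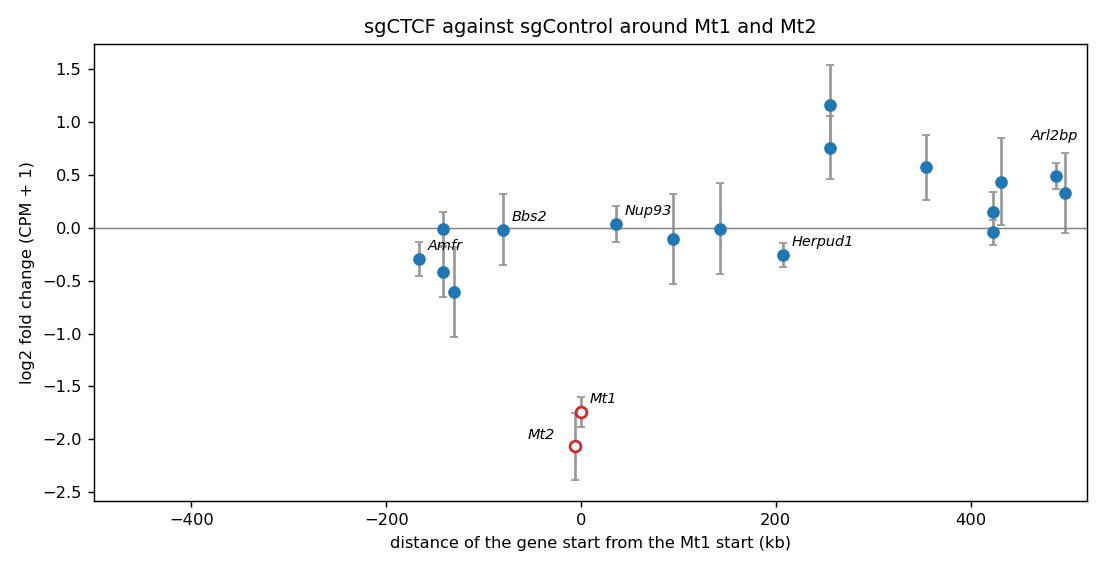
Limma log2 fold change in sgCTCF against sgControl (log2(CPM + 1) scale, with standard error) of tested genes by the distance of their start from the *Mt1* start in kb. Open red points are *Mt1* and *Mt2*, shown with no test, and blue points are the 17 neighbours, none called, which lie between −0.61 and 1.17.

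Genes whose levels ran most like those of the *Mt* pair were sought over the 12 libraries of each experiment, by the lower of 2 Pearson r of log2(CPM + 1) among 8622 genes that averaged over 10 CPM in at least 1 group of both experiments. Libraries of a group share their treatment, so these r are descriptions. For *Mt1* the closest were *Rpl10a* (0.81), *Epb41l4aos* (0.77) and *Rpl4* (0.74), of which *Rpl10a* and *Rpl4* encode proteins of the large ribosomal subunit. For *Mt2* they were *Rpl36a* (0.79), *Aldoa* (0.74) and *Ccnf* (0.73). The r of *Mt1* with *Mt2* was 0.91 in Exp2, which holds the sgCTCF libraries the pair was selected on, and 0.45 in Exp1. The likeness uses the sgCTCF and sgMed12 libraries, so levels of these genes there are given with no test. In sgCTCF the 6 genes were lower, from 1.27-fold for *Rpl4* to 1.90-fold for the aldolase gene *Aldoa* (408 against 775 CPM), which was 492 CPM in sgMed12. The genes closest to *Mtf1* were *Syne3*, *Smagp* and *Hspa9* (0.70, 0.70 and 0.69), to *Slc30a1* *Rxylt1*, *Hipk3* and *Rnf135* (0.71, 0.67 and 0.66), and to *Hmox1* *AI987944*, *Ppp1r2* and *Cd28* (0.67, 0.64 and 0.62).

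Markers of other cells and of the Notch-stimulated stage were read beside the lower *Mt1* and *Mt2* levels of sgCTCF. The 7 Notch-stimulated markers, led by *Notch1*, summed to 254 to 268 CPM in sgCTCF and 177 to 241 CPM in sgControl. Of them 6 were tested in sgCTCF, with 2 called higher and 0 lower, where 2.43% of all tested genes were called. The 14 stromal markers had a summed level of 18.5 to 33.0 CPM in sgCTCF and 5.02 to 33.8 CPM in sgControl, with *Col3a1*, *Lum*, *Dcn* and *Postn* at 0 in both. The 12 monocyte or macrophage markers summed to 132 to 183 CPM in sgCTCF and 93.5 to 111 CPM in sgControl, with *Cd14*, *C1qa* and *C1qb* at 0 in both. Of 9 tested, 1 was called higher, beside the same 2.43% of all tested genes, and nothing is read from so small a count. The 8 erythroid markers summed to 57.7 to 89.7 against 127 to 143 CPM, nearly all from *Hbb-bt*, with *Hba-a1*, *Hba-a2* and *Alas2* among those at 0 in both, and the 6 granulocyte markers to 1.34 to 2.31 against 4.14 to 5.91 CPM. In Exp2 sgCbfb the monocyte or macrophage markers summed to 933 to 1090 CPM. Of the 7 LP markers, 3 were called higher in Exp2 sgCbfb, 4 in Exp1 sgCbfb LPs and 4 in Phase1 sgCbfb. The shares of all tested genes called there were 4.33%, 1.69% and 3.52%. Against sgControl, 0 LP markers were called in sgCTCF and 1 was called lower in sgMed12, where 1.03% of all tested genes were called. The part of these marker differences in the level of *Mt1* and *Mt2* was not tested in any group.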

How the data were processed

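The authors used fastp for trimming and STAR for alignment to mm10, and deposited 1 value per gene and library under the name TPM. These deposited values are CPM relative to all reads assigned to genes, since 100.0% of them were whole multiples of 1 read within the rounding of the files. The counter, its annotation and its strand setting are not given in the sources used here. A deposited gene length and an authors' mean of the controls were not used. Positions came from GENCODE M21 (55227 of 55487 identifiers matched).

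Genes with at least 1 CPM in 3 libraries were tested with limma 3.58.1 (R 4.3.3) on log2(CPM + 1), the 4 groups of an experiment in one fit, with trend-moderated variances and Benjamini-Hochberg adjustment. Calls used an adjusted p under 0.05, a 2-fold ratio of means (not for the interaction) and a mean over 10 CPM. Fold changes on this scale understate low genes. edgeR 4.0.16 on recovered reads, other pseudocounts, filters, scaling and fits, and each library left out, were alternatives. The method was tested on simulated data. Scripts used pandas 2.3.3 and numpy 2.4.6.

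The 5 genes and all lists were chosen with earlier results of these data known. Named genes are the 5, the targeted genes, list genes called (at most 3 per list) or of highest level, those most like each of the 5, and tested neighbours within 500 kb of *Mt1*. The study describes its replicates as biologically independent. Same-numbered libraries of different groups deviated together (r over 0.1) in 2 of 18 pairs in Exp1 and 6 of 18 in Exp2, so numbers were not treated as pairs.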

Additional observations from a re-analysis of the deposited data

Results flagged for a closer look

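The sgCbfb effect on *Slc39a1*, the gene of the zinc importer ZIP1, differed between Phase1 cells and LPs by 2.19 on the log2 scale in the interaction test of Exp1 (SE 0.47, limma adjusted p = 0.017). Its mean was 19.8 ± 12.1 CPM in sgControl and 48.4 ± 3.2 CPM in sgCbfb Phase1 cells, and 51.7 ± 5.3 CPM in sgControl and 30.6 ± 6.2 CPM in sgCbfb LPs (SD, n = 3). The lower LP level with sgCbfb was not seen to that degree in Exp2. There *Slc39a1* was 43.2 ± 7.4 CPM in sgControl LPs and 38.3 ± 6.8 CPM in sgCbfb LPs, groups that overlapped. The interaction call of Exp1 was lost when LP sgControl replicate 1 or 3, LP sgCbfb replicate 3 or Phase1 sgCbfb replicate 3 was left out.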

How the results depend on the processing

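Depth limits *Slc30a1* and *Hmox1*, which had as few as 2 and 4 reads in a library. The counts of list genes called moved as follows. With only the compared libraries in the fit, Exp1 sgCbfb called 2 in LPs and 1 in Phase1 (1 and 3 as reported). With edgeR it called 2 in LPs, and the interaction 2 (1 as reported). With the replicate number as a block, Phase1 sgCbfb called 5 and the interaction 2, and the block changed the call of none of the 5 genes. With a pseudocount of 5 the interaction called 3. With a pseudocount of 0.1 or no filter on low values, Phase1 against LP with sgCbfb called 0 (1 as reported). Without a fold threshold, calls were 2 and 6 for Exp1 sgCbfb in LPs and Phase1, 4 for Phase1 against LP with sgCbfb, 15 for Exp2 sgCbfb, 7 for sgCTCF and 11 for sgMed12, which then also called 1 of the 5 genes, *Mt1*. The share of all tested genes called without that threshold was not taken. *Mt2* turned to 0.015 in Exp1 LP sgCbfb with edgeR (−0.13 as reported), and the *Mtf1* interaction to 0.003 with a pseudocount of 0.1 (−0.01 as reported).

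Leaving out 1 library at a time gave 0 to 2 list genes called for LP sgCbfb, 2 to 5 for Phase1 sgCbfb, 2 to 6 for Phase1 against LP with sgControl, 0 to 1 with sgCbfb, 0 to 2 for the interaction and 0 to 4 for sgMed12, and 0 to 1 of the 5 genes for sgMed12. The extremes were 5 without Phase1 sgControl replicate 1 (Phase1 sgCbfb), 2 without LP sgControl replicate 1 (Phase1 against LP with sgControl), and 4 list genes and 1 of the 5 without sgMed12 replicate 2. Log2 fold changes that changed sign ranged as follows. In LP sgCbfb they were −0.53 to 0.12 for *Mt2* and −0.21 to 0.55 for *Slc30a1*. In Phase1 sgCbfb *Mt2* was −0.057 to 0.47. In Phase1 against LP with sgCbfb *Hmox1* was −0.007 to 0.60. In the interaction *Mtf1* was −0.22 to 0.25 and *Hmox1* −0.28 to 0.33. In Exp2 *Mtf1* was −0.085 to 0.24 in sgCbfb and *Slc30a1* −0.054 to 0.56 in sgMed12. The log2 ratio of means of *Hmox1* in sgCTCF was −0.42 to 0.23.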
